A study of Homo sapiens with 2 samples.

Results

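The RUNX genes and CBFB encode the core-binding factor, and the positions of GATA1 on the promoters of these 4 genes were examined in Meg-01, a human cell line of megakaryocytic leukemia. The members were RUNX1, RUNX2, RUNX3 and CBFB, 4 of 17280 gene symbols on the arrays, and they were found as every probe whose array annotation gave the symbol with a distance to a transcription start. This gave 262 of 474411 genomic probes, with 99 for RUNX1, 51 for RUNX2, 81 for RUNX3 and 31 for CBFB. The cells were untreated, and DNA pulled down with the C-20 antibody against the C-terminus of GATA1 (the IP, labeled with Cy5) was hybridized together with DNA pulled down by normal goat IgG (labeled with Cy3). The promoter set came as 2 arrays with different probes, named chIP1 and chIP2 after the sample titles. RUNX2 and RUNX3 lay on chIP1, and RUNX1 and CBFB lay on chIP2. Each probe was measured in 1 hybridization of chromatin from 1 cell line, with no replicate and no dye swap, so no test over samples was possible and every value below is a description of these arrays.

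RUNX1, RUNX2 and RUNX3 are the DNA-binding alpha subunits of the core-binding factor, and CBFB is the beta subunit that does not contact DNA itself but raises the affinity of its partner. RUNX1 is required for blood formation in the embryo and for the maturation of megakaryocytes, where it works together with GATA1, while RUNX2 is the master regulator of bone formation and RUNX3 acts in T cells and sensory neurons. Each RUNX gene is transcribed from a distal promoter (P1) and a proximal promoter (P2), which give proteins with different N-termini. GATA1 itself is the zinc finger factor that directs red cell and megakaryocyte genes and binds GATA sequences.

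The promoter sequences of the RUNX genes are shown here since the array probes were placed around them. RefSeq (GRCh38.p14) gave a stretch of 300 bases, from 250 bases before to 50 bases after the start, for both RUNX3 promoters, both RUNX2 promoters and the proximal RUNX1 promoter. The printed stretches, 5′ to 3′ on the strand of the gene, are chr1:24964961-24965260 (minus strand) for distal RUNX3, chr1:24930227-24930526 (minus strand) for proximal RUNX3, chr21:34888650-34888949 (minus strand) for proximal RUNX1 and chr6:45422025-45422324 (plus strand) for proximal RUNX2. Capitals mark a RUNX motif, TGTGGT or TGCGGT on either strand.
RUNX3 distal: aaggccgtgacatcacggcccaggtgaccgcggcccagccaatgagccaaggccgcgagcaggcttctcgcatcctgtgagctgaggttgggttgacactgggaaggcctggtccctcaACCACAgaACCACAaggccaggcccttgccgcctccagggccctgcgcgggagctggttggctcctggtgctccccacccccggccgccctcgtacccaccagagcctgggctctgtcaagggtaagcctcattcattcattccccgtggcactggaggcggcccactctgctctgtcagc
RUNX3 proximal: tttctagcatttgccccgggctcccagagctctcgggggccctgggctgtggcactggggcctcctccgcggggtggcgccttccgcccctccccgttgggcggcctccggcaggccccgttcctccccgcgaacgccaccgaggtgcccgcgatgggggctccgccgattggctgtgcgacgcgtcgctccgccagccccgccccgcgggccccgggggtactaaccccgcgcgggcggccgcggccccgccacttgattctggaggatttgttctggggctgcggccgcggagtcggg
RUNX1 proximal: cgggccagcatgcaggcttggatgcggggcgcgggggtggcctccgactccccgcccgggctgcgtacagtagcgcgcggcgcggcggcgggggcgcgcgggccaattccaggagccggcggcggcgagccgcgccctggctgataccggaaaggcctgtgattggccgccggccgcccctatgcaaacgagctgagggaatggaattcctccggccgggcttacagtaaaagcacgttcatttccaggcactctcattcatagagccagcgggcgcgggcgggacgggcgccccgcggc
RUNX2 proximal: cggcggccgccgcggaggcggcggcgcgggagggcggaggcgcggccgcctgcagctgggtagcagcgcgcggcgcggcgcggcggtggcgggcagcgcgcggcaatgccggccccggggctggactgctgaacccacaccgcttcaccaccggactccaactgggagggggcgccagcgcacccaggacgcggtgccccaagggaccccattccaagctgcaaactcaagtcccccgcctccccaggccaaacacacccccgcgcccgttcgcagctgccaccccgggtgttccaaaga

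The distal RUNX3 stretch held 2 RUNX motifs, both as ACCACA on the strand of the gene. They began 131 and 123 bases before the start. The distal RUNX2 stretch, around which no RUNX2 probe lay, held 5 RUNX motifs. The 3 proximal stretches held none, and their content of G and C was 72.0% for RUNX1, 76.0% for RUNX2 and 76.0% for RUNX3. A GATA motif was searched on either strand in its forms AGATAA, which is the most common form of the binding sequence, TGATAA, which differs in the first base, AGATAG, which differs in the last base, and TGATAG, which differs in both. It was found in none of these 5 stretches. Of all 35116 RefSeq promoter stretches of this length, 25% held a GATA motif and 19.6% held a RUNX motif. A match in these letters is a description and not a site. The build of the probe positions is not given in the sources used here. The starts on the array were not exactly those of RefSeq, since the RUNX3 starts were 35107 bp apart on the array and 34734 bp apart in RefSeq. For RUNX2 the corresponding distances were 93860 and 93945 bp. The array positions below were therefore not laid over these sequences.

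The study designed a pair of PCR primers for the RUNX3 region that it checked, and these are shown since they were made for a member of the family.
RUNX3 primer 1: ggtcccccaatctcaactcg
RUNX3 primer 2: cctaacccggatcgctca
Neither primer matched any of the RefSeq promoter stretches on either strand (0 matches for each), so the PCR product could not be placed among the probes.

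Each probe was given its log2 ratio of processed intensities, IP over IgG, after centering every array on a median of 0, so that 1 means 2-fold toward the IP and -1 means 2-fold toward the IgG. Windows were means of 3 adjacent probes, each no more than 1000 bp from the next. A window belonged to a gene when any of its probes was annotated to that gene. Sonicated fragments span several probes, so adjacent probes are not independent. All 262 member probes passed the filters and were marked by the scanner software as well above background in both channels, and none was saturated or replaced by a surrogate value. The error that the scanner software gave to a single member probe had a median of 0.21 to 0.22 (log2) for each gene and reached 1.83 for a dim RUNX3 probe. It covers error within 1 array only. Over all genomic probes, the median mean signal was 543 (IP) and 412 (IgG) on chIP1 and 544 and 440 on chIP2. The 1371 negative control spots of each array had median signals of 342 and 303 on chIP1 and 340 and 303 on chIP2. Some marked probes were nevertheless at the level of those spots. The RUNX3 probe 4504 bp before the distal start had mean signals of 343 (IP) and 305 (IgG), and the RUNX1 probe 331 bp before the proximal start had 346 and 311.

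Windows of 3 probes past 2-fold toward the IP were found at RUNX3, RUNX1 and CBFB and not at RUNX2. The members had 248 windows, of which 15 were at least 2-fold toward the IP, or 6.05%, while 7.62% of all windows of both arrays were. On the IgG side 4 member windows passed 2-fold, or 1.61%, against 9.65% of all windows. By gene, 3 of the 4 members had an IP window, as did 57.1% of all 17054 genes with a window. The share of genes with such a window rose with the number of windows, and it was 85.7% among genes with at least 45 windows (as for RUNX1, RUNX2 and RUNX3) and 61.1% among genes with 20 to 34 windows (as for CBFB). The member counts on the IP side therefore lay near the background, and nothing particular to the family is read from them.

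CBFB had the highest window, at 2.01 ± 1.20 (log2, mean and SD of the 3 probes), or 4.03-fold toward the IP. RUNX3 followed with 1.79 ± 0.78 (3.45-fold), then RUNX1 with 1.19 ± 0.29 (2.28-fold) and RUNX2 with 0.89 ± 0.67 (1.86-fold). Neighbors in this order did not differ beyond the spread of their 3 probes, which is a spread along the DNA and not between replicates. Among the 8757 genes with windows on chIP2, the highest window of CBFB stood at percentile 92.1 and that of RUNX1 at percentile 59.2. Among the 8297 genes on chIP1, RUNX3 stood at percentile 85.4 and RUNX2 at percentile 32.6. RUNX1 had 95 windows, RUNX3 had 77, RUNX2 had 49 and CBFB had 27, so that CBFB reached its rank with the fewest. The mean of all windows of a gene, which does not grow with their number, was 0.27 for CBFB (percentile 77.1), 0.26 for RUNX3 (percentile 75.8), 0.06 for RUNX2 (percentile 52.3) and -0.08 for RUNX1 (percentile 35.8).

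**Figure D1:**
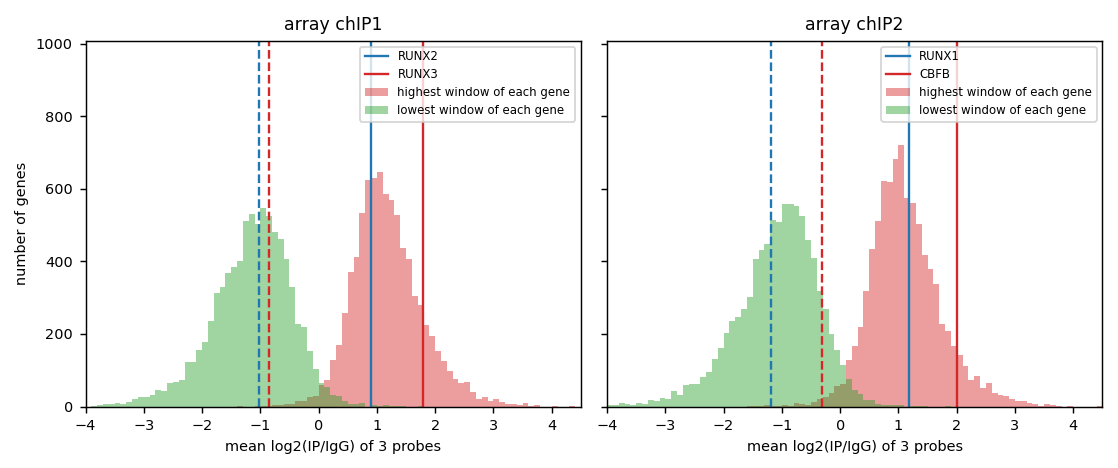
Number of genes (y axis) by the mean log2(IP/IgG) of their highest (red bars) and lowest (green bars) 3-probe window (x axis), for chIP1 (left) and chIP2 (right). Solid lines mark the highest and dashed lines the lowest window of each member, and the highest windows of CBFB (2.01) and RUNX3 (1.79) sit to the right of those of RUNX1 (1.19) and RUNX2 (0.89).

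RUNX3 had the most IP windows, and all 8 of them belonged to its proximal promoter. The probes of this promoter (start of NM_004350 on the array) lay at chr1:24999203-25007119 in the array's positions, from 5423 bp before to 2442 bp inside the start, and 28 of the 43 were above 0. Their median was 0.44 and their mean 0.51 ± 0.76 (SD over probes). Over the whole gene the IP windows were 10.4% of its 77 windows, against 7.98% of all windows on chIP1, and they were 19.5% of the 41 windows of the proximal promoter. In this gene no window of the RUNX3 promoters reached 2-fold toward the IgG.

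The stronger of the proximal RUNX3 regions lay inside the gene, at chr1:25000247-25001215. Its highest window held the probes at 1109, 913 and 742 bp inside the start, with log2 values of 1.31, 2.68 and 1.36. The processed IP intensities of these probes were 781, 1848 and 1786, and their IgG intensities were 315, 288 and 696. All 3 probes were thus past 2-fold, and without the highest of them the window mean was 1.34. The next probe toward the start, at 481 bp, read 1.20, while the probe at 286 bp read -0.06. The other probe beside the highest window, at 1207 bp, read 0.71.

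The second proximal RUNX3 region lay upstream, at chr1:25004389-25004979. Its probes at 2855, 2955, 3054 and 3161 bp before the start read 1.21, 1.40, 1.26 and 1.46. The SD within its highest window, 1.37, was only 0.11, and the flanking probes at 2737 and 3283 bp read 0.94 and 0.82. Between the 2 regions no window passed 2-fold, although single probes at 915 and 1742 bp upstream read 1.43 and 1.09, and the probe 26 bp inside the start read 0.19. The 4 probes within 500 bp of this start had a median of 0.09. The chIP1 probes in that range that were annotated to a single gene symbol had a median of 0.28. The 18 probes from 6000 to 2000 bp upstream had a median of 0.43 and the 12 probes more than 500 bp inside had 0.80. Probes of the array annotated to a single gene symbol had medians of -0.20 and -0.02 at those distances.

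The distal RUNX3 promoter had no window past 2-fold on either side. Its 38 probes, at chr1:25034263-25042356 around the start of NM_001031680, had a median of 0.01 and a mean of -0.04 ± 0.69 (SD over probes), and 19 were above 0. Its highest window, 0.79, was centered 325 bp inside the start and joined probes of 0.83, 0.10 and 1.45. The probe of 1.45 lay 95 bp inside the start, the probe 37 bp upstream read -0.28, and the 6 probes within 500 bp had a median of 0.31. Far upstream, the probes at 4259, 4504, 4723 and 4835 bp read -1.54, -1.31, -1.22 and -1.17. These were 4 of the 38 probes past 2-fold toward the IgG, against 14.4% of all single probes. Among them the probe at 4606 bp read 0.29, and the lowest window, centered at 4504 bp, was -0.85. The RefSeq stretch with the paired RUNX motifs belongs to this promoter. Both RUNX3 promoters were measured on the same array, but their probes are not replicates and the difference was not tested.

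**Figure D2:**
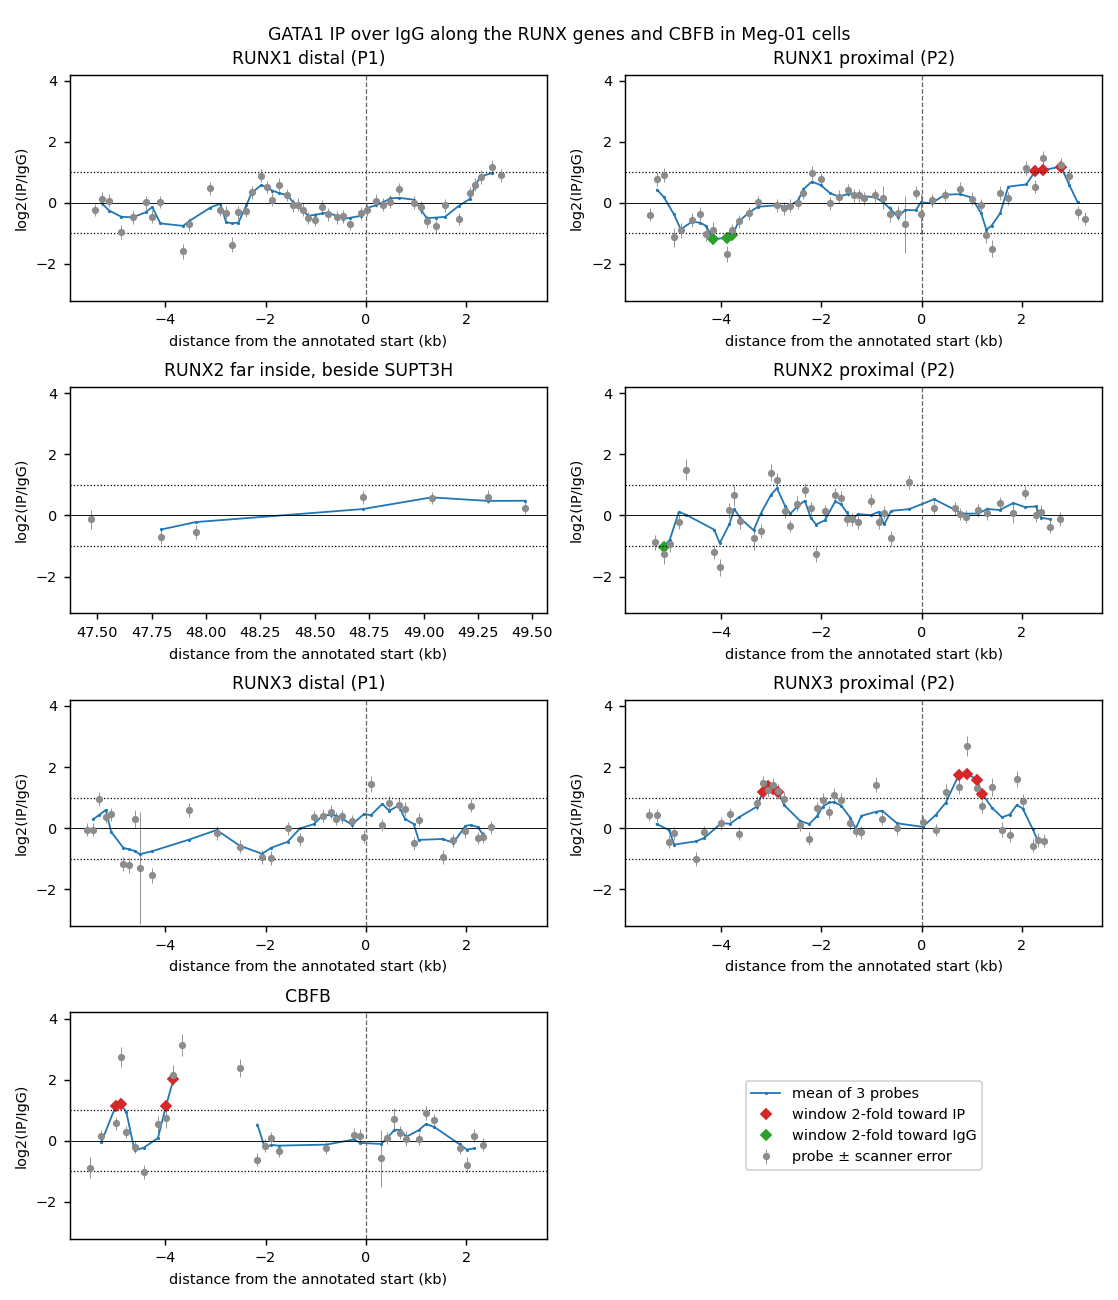
log2(IP/IgG) with the array median at 0 (y axis) against the distance from the start annotated on the array in kb, with positive values inside the gene (x axis), for the 7 tiled blocks of the 4 genes. Gray points are single probes with the error given by the scanner software, blue lines are means of 3 probes, red and green diamonds are windows 2-fold toward the IP and the IgG, dotted lines mark 2-fold and the dashed line the start. The RUNX3 proximal block shows 2 separate IP regions, up to 1.79 and 1.37, and the CBFB block rises to 2.01 only far upstream.

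CBFB showed its IP signal far upstream and none at its start. The array placed its 31 probes at chr16:65615028-65622912, from 5493 bp before to 2332 bp inside the shared start of NM_001755 and NM_022845. The 4 IP windows formed 2 pairs between 5273 and 3670 bp upstream, which the joining distance put into 1 region at chr16:65615251-65616905. They were 14.8% of the 27 windows, against 7.26% of all windows on chIP2. Between the pairs the signal was not on the IP side: the probes at 4609 and 4426 bp upstream read -0.20 and -1.03, and the lowest window of the gene, -0.32, was centered there. The 4 probes within 500 bp of the start had a median of 0.13, against 0.23 for chIP2 probes in that range annotated to a single gene symbol. Its 10 probes more than 500 bp inside had a median of 0.11.

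The CBFB windows rested on few probes. The highest window held the probes at 3982, 3835 and 3670 bp upstream, with log2 values of 0.75, 2.15 and 3.13. The processed IP intensities of these 3 probes were 180, 391 and 1872, and the IgG intensities were 107, 87.6 and 212. The probes of this window had a mean intensity percentile of 18.2 on the array, so that it was among the dimmer windows. Those at 3982 and 3835 bp were at percentiles 6.31 and 9.39. Their IgG mean signals were 314 and 311, close to the 303 of the negative control spots, so their ratios rest on an IgG signal near that level. The pair of windows at the far end, up to 1.19, contained a single probe past 2-fold, the probe 4881 bp upstream at 2.73, whose neighbors read 0.57 and 0.28. One more probe stood high alone: the probe 2500 bp upstream read 2.38, but the next probes at 2162 and 2015 bp read -0.62 and -0.16, and their window mean was 0.53. The background correction (normexp) named here and below started from the mean signals and added an offset of 50. The processed values of dim probes already lay far below their mean signals, so the comparison is between 2 ways of treating background. How much of a change came from the offset was not tested. With background correction (normexp) the highest CBFB window overall was 1.09, at the single high probe 4881 bp upstream, and the 3835 bp window was 0.61. With 5-probe windows the highest was 1.11.

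RUNX1 had a modest IP region inside its proximal promoter and a region on the IgG side upstream of it. With 3 windows each, both sides held 3.16% of its 95 windows, below the 7.26% (IP) of all windows on chIP2 and the 9.65% (IgG) of all windows of both arrays. The 50 probes of this promoter (NM_001001890, chr21:35179588-35188290) had a median of 0.02, and 26 were above 0. Its 3 IP windows joined at chr21:35179891-35180795, where the probes at 2937, 2775, 2424, 2262 and 2084 bp inside the start read 0.88, 1.23, 1.45, 0.53 and 1.13. This region changed little with background correction, under which its highest window was 1.15. The windows on the IgG side, 3 in number, lay at chr21:35186473-35187184, where the lowest mean was -1.18 and the lowest probe, 3881 bp upstream, read -1.67. With background correction none of these 3 stayed past 2-fold toward the IgG, and their means became -0.74, -0.81 and -0.77.

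The RUNX1 starts had no probe past 2-fold toward the IP. At the proximal start, 6 probes within 500 bp had a median of -0.13 and 3 were above 0. Of these, the probes at 15 and 331 bp upstream, with -0.37 and -0.70, were among the dimmest of the array (intensity percentiles 1.26 and 0.552), and the other 4 read 0.26, 0.08, 0.33 and -0.34. At the distal start (NM_001754, chr21:35340753-35348896), which is the promoter nearest to the 5′ end of the gene, all 7 probes within 500 bp lay between -0.68 and 0.07 with a median of -0.24, and 2 were above 0. Of the chIP2 probes annotated to a single gene symbol and within 500 bp of its start, 66.8% were above 0 and the median was 0.23. The distal block as a whole had 49 probes with a median of -0.13 and no window past 2-fold on either side. Its highest window, 0.97, was centered 2509 bp inside the start with probes of 0.90, 1.17 and 0.84, just under the threshold.

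RUNX2 had no window past 2-fold toward the IP. The 44 probes around its proximal start (NM_004348, chr6:45492553-45500678) had a median of 0.07 and a mean of 0.01 ± 0.70 (SD over probes), and 25 were above 0. As single probes, 4 of them passed 2-fold toward the IP, up to 1.49, and 4 toward the IgG. Of all single probes 11.8% and 14.4% did. The highest window, 0.89, was centered 2882 bp upstream and joined probes of 1.40, 1.15 and 0.14. Only 2 probes lay within 500 bp of the start, at 250 bp upstream with 1.10 and at 249 bp inside with 0.26. The window on the IgG side, -1.02, was centered 5134 bp upstream among dim probes (mean intensity percentile 13.3), and with background correction it was -0.65. The highest window was 1.08 after the trend on distance to the start had been removed, which put it past 2-fold.

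The distal RUNX2 start (NM_001015051) had no RUNX2 probe near it. The nearest lay 47473 bp inside the gene, where 7 probes were annotated to RUNX2 at chr6:45451475-45453520. They had a median of 0.25, and their highest window was 0.59. They adjoin the start of SUPT3H, which encodes a subunit of histone acetyltransferase complexes and is read in the opposite direction. The 22 probes named for SUPT3H that also carry the RUNX2 transcript, 72 to 4219 bp before the SUPT3H start, had a median of -0.48. Of the 22 SUPT3H windows, 7 were past 2-fold toward the IgG and none toward the IP. Of all windows of both arrays, 9.65% were past 2-fold toward the IgG and 7.62% toward the IP.

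The signal level at which these windows were measured is shown in the plot of windows by intensity, since ratios spread more among dim probes. Among windows of chIP1 within the same 5 percentiles of intensity, the 913 bp window of RUNX3 stood at percentile 98.9 and its 3054 bp upstream window at percentile 98.3. On chIP2 the 3835 bp upstream window of CBFB stood at percentile 98.3, its dimmest IP window (3982 bp, intensity percentile 8.89) at percentile 87.3, and the 2775 bp window of RUNX1 at percentile 97.7. Apart from the 3982 bp window, these were picked as the highest of their gene or region and compared with all single windows. A high percentile therefore follows in part from that choice. Among the highest windows of all genes on their arrays, those of RUNX3, CBFB and RUNX1 stood at percentiles 85.4, 92.1 and 59.2. Each of the 3 probes was past 2-fold in 4 of the 15 IP windows, and these 4 belonged to proximal RUNX3. In 10 of the 15, the mean stayed past 2-fold without the highest probe. With background correction, 10 of the 15 windows stayed past 2-fold, and with loess on intensity all 15 did.

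**Figure D3:**
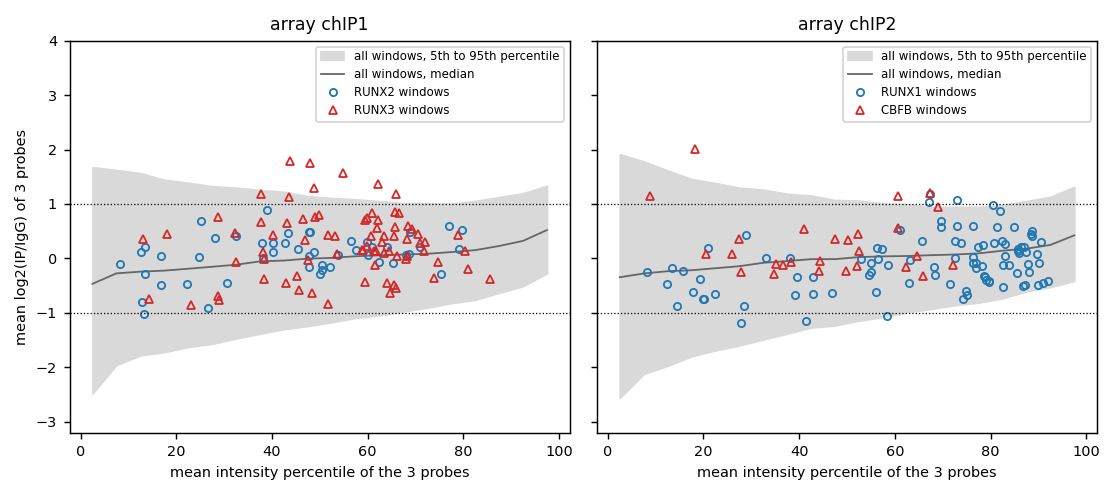
Mean log2(IP/IgG) of 3-probe windows (y axis) against the mean intensity percentile of their probes on the array (x axis), for chIP1 with RUNX2 and RUNX3 (left) and chIP2 with RUNX1 and CBFB (right). The gray band holds the 5th to 95th percentile and the gray line the median of all windows of the array in steps of intensity, and the highest CBFB window (2.01) lies at a lower intensity (18.2) than the highest RUNX3 window (1.79, at 43.8).

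The order of the members depended on the processing. RUNX3 and CBFB were above RUNX1 and RUNX2 in every setting that was run except background correction, with which the highest windows were 1.31 for RUNX3, 1.15 for RUNX1, 1.09 for CBFB and 0.61 for RUNX2. With 5-probe windows they were 1.48 for RUNX3, 1.11 for CBFB, 1.04 for RUNX1 and 0.55 for RUNX2. RUNX3, RUNX1 and CBFB stayed past 2-fold in every setting that was run, and RUNX2 passed it with single probes and after removal of the distance trend.

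**Figure D4:**
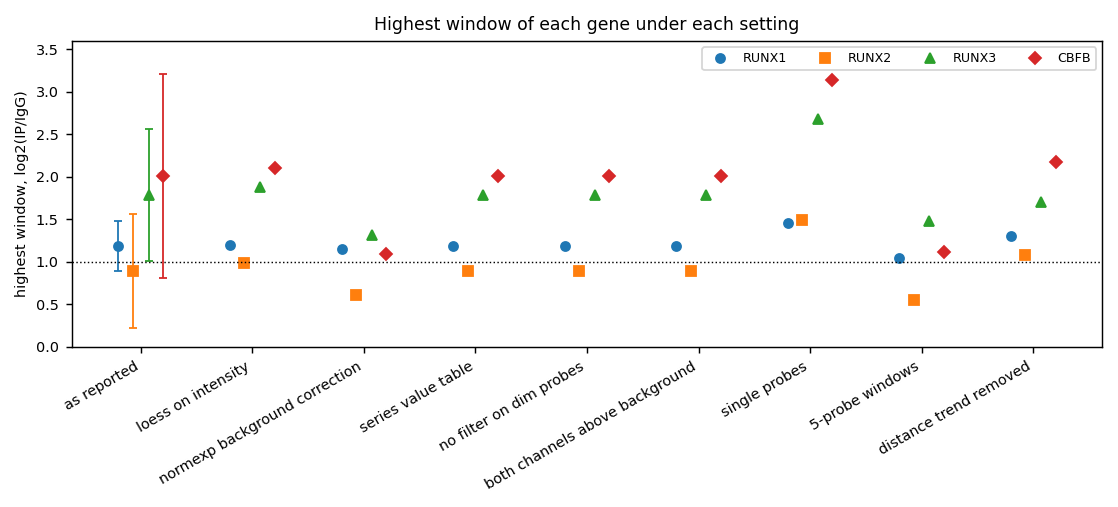
Highest window of each member as log2(IP/IgG) (y axis) under each processing setting (x axis), with the SD of the 3 probes as error bars on the reported values at the left and a dotted line at 2-fold. CBFB is highest as reported (2.01), while RUNX3 (1.31) is highest with background correction.

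Genes that work with the RUNX proteins were described in the same way, from lists of textbook partners and targets. Of 26 partner and cofactor genes, which encode corepressors, histone-modifying enzymes and binding partners, 24 were on the arrays, and KAT6B and HIPK2 were not analysed here. Of these 24, 12 had an IP window (57.1% of all genes had one), and the median of their highest windows was 1.04, where it was 1.09 for all genes. The highest were TLE4, a Groucho corepressor (2.27), RUNX1T1, the ETO corepressor that is fused to RUNX1 in leukemia (1.66), and WWTR1, the coactivator TAZ (1.65). The lowest were CBFA2T2, a relative of ETO (-0.03), the corepressor SIN3B (0.30) and the acetyltransferase CREBBP (0.59). These ranks were not adjusted for the number of windows, which was 161 for RUNX1T1 and 11 for SIN3B. The mean of all RUNX1T1 windows was -0.47 and the lowest was -2.83. With background correction the same windows of TLE4, RUNX1T1 and WWTR1 were 0.39, 1.57 and 0.88, and their intensity percentiles were 6.93, 79.0 and 25.5.

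RUNX1 target genes in blood cells gave a similar share. All 24 were on the arrays, 13 had an IP window (54.2%, against 57.1% of all genes), and the median of their highest windows was 1.07. MYH10, the nonmuscle myosin that RUNX1 silences in megakaryocytes, had 2.65 ± 0.75 (SD of 3 probes), the cyclin gene CCND2 had 2.50 ± 0.60 and the T cell coreceptor CD4 had 2.22 ± 0.31. The lowest were RAB27B, which acts in platelet granule secretion (0.58), the granzyme gene GZMB (0.62) and the phosphatidylcholine transfer protein PCTP (0.64). With background correction the same windows of MYH10, CCND2 and CD4 were 0.91, 1.61 and 1.81.

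RUNX2 target genes of bone and cartilage were spread most widely. Of 12 genes 8 had an IP window (66.7%, against 57.1% of all genes), and the median of their highest windows was 1.19. The highest were the collagen gene COL1A2 (2.83), the homeobox gene DLX5 (2.24) and TNFSF11, the RANK ligand (2.22), and the lowest were the bone sialoprotein gene IBSP (0.11), the collagen gene COL10A1 (0.23) and the alkaline phosphatase ALPL (0.31). The windows of COL1A2 and TNFSF11 were dim (intensity percentiles 3.03 and 5.53), and with background correction they were 0.36 and -0.14. The DLX5 window had an SD of 1.45 over its probes and an intensity percentile of 22.5, and with background correction it was 1.21. On the IgG side 9 of the 12 had a window past 2-fold, against 52.9% of all genes, 14 of the 24 partner genes and 11 of the 24 blood targets.

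**Figure D5:**
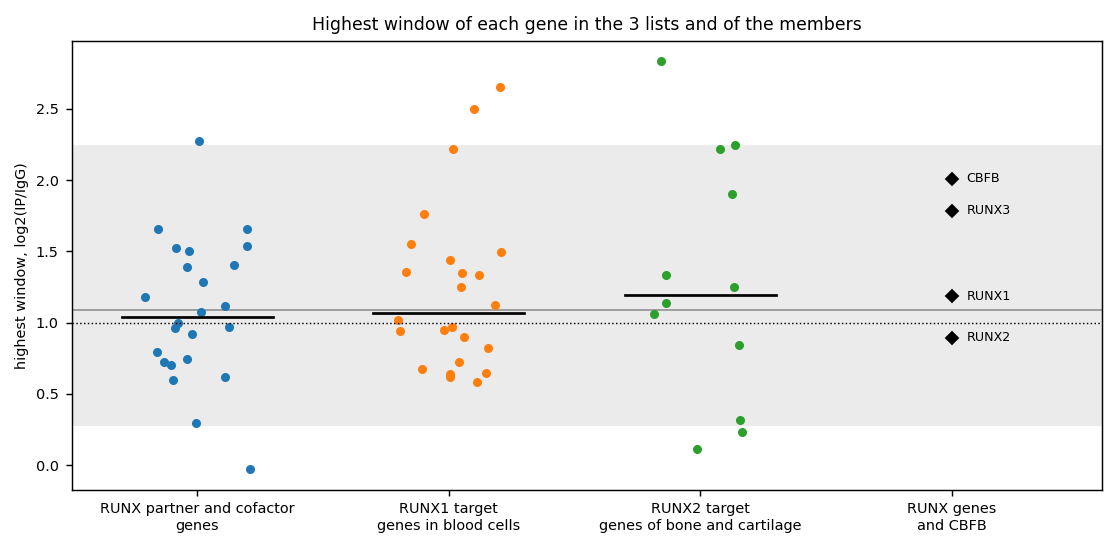
Highest window of each gene as log2(IP/IgG) (y axis) in the 3 lists (circles, with the median as a black bar) and for the 4 members (diamonds). The gray band is the 5th to 95th percentile of all 17054 genes (0.28 to 2.24), the gray line their median (1.09) and the dotted line 2-fold, and the list medians of 1.04, 1.07 and 1.19 lie close to it.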

How the data were processed

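Chromatin of untreated Meg-01 cells was measured on 2 promoter arrays, and the members and gene lists described here were chosen with earlier results of these data known. The authors deposited the scanner output of Agilent Feature Extraction 9.5.3.1, whose processed intensity values had been detrended and dye-normalized without local background subtraction, and the deposited log10 ratio is Cy5 over Cy3. A background level was nevertheless no longer in the processed values. The RUNX3 probe 4504 bp before the distal start had mean signals of 343 (IP) and 305 (IgG) but processed values of 12.5 and 31.0. The deposited value tables hold the same log10 ratios. The genome build of the probes is not given in the sources used here. In the study, lowess and median normalization were followed by peak calling in commercial software that was not used here.

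After removal of control spots, non-uniformity outliers and probes dim in both channels, 237004 of 237210 genomic probes remained on chIP1 and 236864 of 237201 on chIP2. Windows had 3 probes, each within 1000 bp of the next, and were called at 2-fold. IP windows within 1000 bp were joined, and tiled blocks were split at gaps over 5000 bp. Genes named are the 4 members, genes on the same probes, and the 3 highest and 3 lowest of each list, with older symbols matched to the array. Some genes were left out of the lists and are not reported here. Alternatives were loess (span 0.3), normexp background correction of the mean signals (offset 50), the value table, 2 other filters, single and 5-probe windows, removal of the distance trend (medians in steps of 500 bp out to 6000 bp) and, for counts, thresholds of 1.5-fold and 3-fold. Python 3.11.15, pandas 2.3.3, R 4.3.3 and limma 3.58.1 were used, and the window code was tested on simulated data. Precision is limited by having 1 array per probe.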

Additional observations from a re-analysis of the deposited data

How the results depend on the processing

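Of 32 values for the highest windows of the 4 members under the alternatives, 29 moved by less than the SD of their 3 probes and stayed on their side of 2-fold, and of 50 counts 31 stayed within 1.5 times. This measure is loose for CBFB, whose SD was 1.20. Its highest window was 2.01 as reported, 1.09 with normexp and 1.11 with 5-probe windows, and both changes are within the 29. With single probes the highest values were 1.49 for RUNX2 and 2.68 for RUNX3, and the highest RUNX2 window was 1.08 after removal of the distance trend. The 15 IP windows of the members became 25 with single probes, 9 with 5-probe windows, 37 at 1.5-fold and 3 at 3-fold. The 4 windows on the IgG side became 0 with normexp, 16 with single probes, 1 with 5-probe windows, 1 with the distance trend removed, 26 at 1.5-fold and 0 at 3-fold. Genes with an IP window in the partner list numbered 21 with single probes, 22 at 1.5-fold and 3 at 3-fold, those among the blood targets 23, 23 and 4, and those among the bone targets 2 with normexp, 4 with 5-probe windows and 4 at 3-fold. The background moved too. Of all windows 3.25% were on the IP side with normexp, 11.8% with single probes, 4.99% with 5-probe windows, 19.3% at 1.5-fold and 1.79% at 3-fold. On the IgG side it was 2.5%, 14.4%, 6.97%, 21% and 2.74% in the same order, and 8.83% with the distance trend removed. Of all genes 33.1%, 86.1%, 34.1%, 85% and 20.6% had an IP window in that order. The fewer calls at 3-fold and the more at 1.5-fold follow from the thresholds, and the cause of the other moves was not tested. No paired analysis was possible because the 2 arrays carry different probes, which leaves no pairs of values. Signal over background limits what can be read from dim windows, among them those of CBFB, TLE4, TNFSF11 and COL1A2 (intensity percentiles 18.2, 6.93, 5.53 and 3.03).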
